A study of Mus musculus with 9 samples.

Results

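The contacts of the Dbp locus at 2 circadian times, CT22 and CT34, were compared in wild-type mouse embryonic fibroblasts of 2 lines. All arrays labelled wild type at either time were taken, which gave 4 of the 9 arrays of the series: line 1 at CT22 and CT34, and line 2 at CT22 and CT34. No measured value entered this choice. The series used chromosome conformation capture on chip (4C), with Dbp as the viewpoint, in fibroblasts synchronized with dexamethasone. Its other arrays were line 1 at CT26, CT30 and CT46 and a Bmal1-/- line at CT22 and CT34.

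All 4 samples had the genotype wild type and were treated with dexamethasone for 2 h, washed, and harvested at the stated time. Line 1 came from siblings of the Bmal1-/- line. Line 2, called WT2 in the labels, came from a mating of heterozygous mice of another strain and was grown with other serum. Line, parentage and serum cannot be told apart. The labels give circadian times of 22 and 34 h for both lines, but the array names of line 2 carry 24 and 36 h, so the hours of that line are uncertain by this much. Each line and time had 1 array, so every comparison rested on n = 2 lines per time, and the lines were separate embryo cultures. The arrays measure DNA, so the labelled cell type could not be checked against expression markers.

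Dbp encodes a PAR bZIP transcription factor that is an output gene of the circadian clock. The activators CLOCK and BMAL1 bind E-boxes in the gene and drive its daily rhythm of transcription, and PER and CRY proteins then repress them. Dexamethasone is a glucocorticoid that sets the clocks of cultured fibroblasts to a common phase. In 4C, crosslinked chromatin is cut and ligated, and the fragments joined to the viewpoint are amplified by inverse PCR. A probe thus reads how often its fragment was captured with Dbp. Capture is highest next to the viewpoint, lower along the rest of the same chromosome, and lower again on other chromosomes, where gene-rich active regions tend to be captured more often by an active gene. The comparison asks whether these contacts differ between circadian times that lie 12 h apart in the labels.

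Each array held the same 384942 probes of 59 nt, 19355 of them on chromosome 7, which carries Dbp. The arrays of the lines differed in range. The SD of the deposited log2 ratios was 0.83 in line 1 CT22, 0.93 in line 1 CT34, 0.39 in line 2 CT22 and 0.41 in line 2 CT34. Within 1.1 Mb at the viewpoint peak the mean log2 ratio was 4.31, 4.22, 1.97 and 1.96 in the same order. Each probe was therefore given its percentile rank within its array, from 0 for the lowest to 100 for the highest ratio, and ranks were averaged in 1 Mb windows. Of the 2518 windows with at least 50 probes, 133 lay on chromosome 7, 2237 on the other 18 autosomes and 148 on the chromosomes numbered 20 and 21 in the files. Coordinates are those of the files, whose genome build no label or header names, so windows are named by position only. A difference is CT34 minus CT22 and its unit is the percentile point.

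The contact map of chromosome 7 was more alike between CT22 and CT34 of a line than between the lines. Across the 133 windows the levels at the 2 times correlated with r = 0.976 in line 1 and 0.933 in line 2. Between the lines the correlation was 0.757 at CT22 and 0.846 at CT34. The SD of the difference over windows was 3.11 points between times in line 1 and 3.18 in line 2, against 9.63 between lines at CT22 and 7.51 at CT34. On the other autosomes the correlations between times were 0.942 and 0.892 and those between lines 0.629 and 0.685. The SDs there were 2.38 and 1.77 points between times and 5.45 and 5.25 between lines. These correlations are across windows, which share an array and a chromosome and are not independent replicates. The profile of chromosome 7 shows the same peaks in the 2 times of a line, with the line 2 peaks lower.

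**Figure D1:**
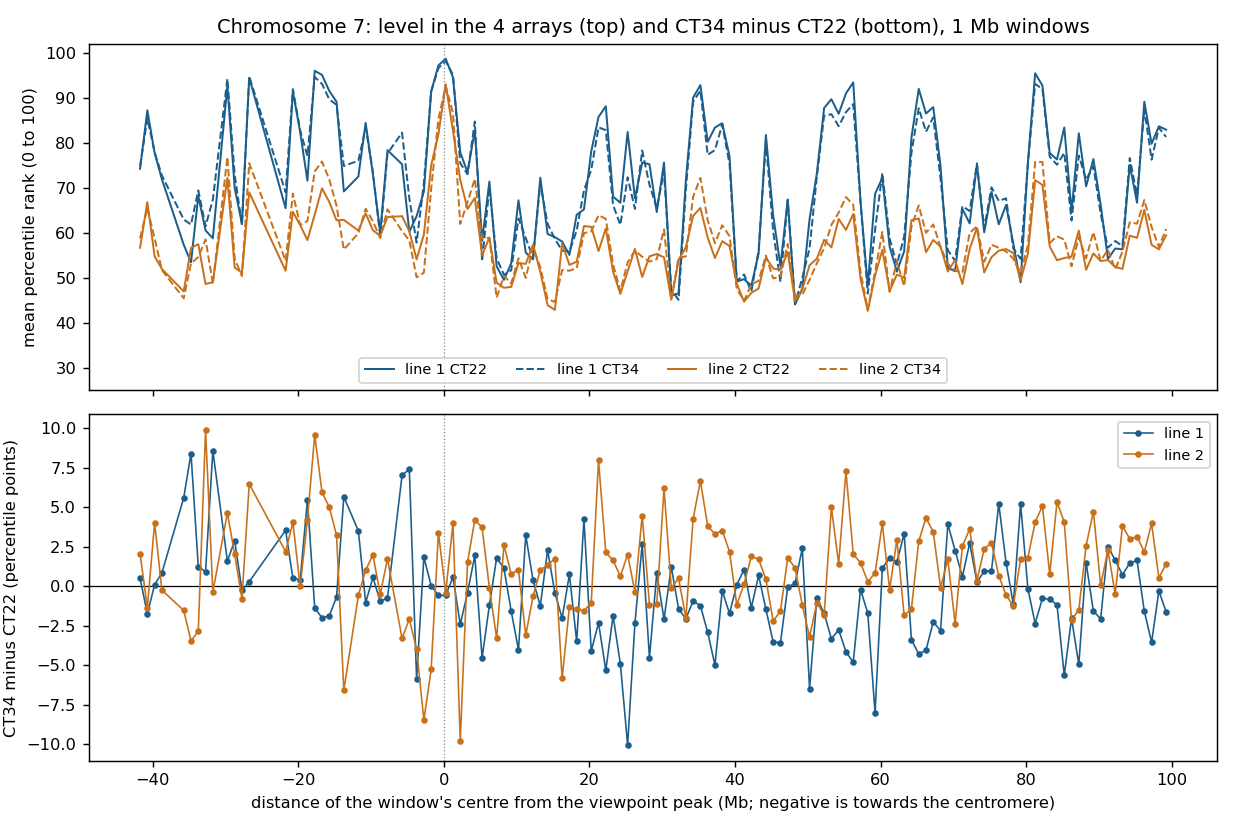
Mean percentile rank of each 1 Mb window of chromosome 7 in the 4 arrays (top) and CT34 minus CT22 in percentile points for each line (bottom), against the distance of the window's centre from the viewpoint peak in Mb. Solid and dashed lines of one colour, the 2 times of a line, run close together (r = 0.976 in line 1 and 0.933 in line 2), and the differences of the lines scatter around 0 on both sides.

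On chromosome 7 the 2 lines differed in opposite directions more often than in the same one. Of 133 windows, 33 were higher at CT34 in both lines (24.8%, against 25.5% of all windows) and 23 were lower in both (17.3%, against 23.2% of all windows). A further 26 were higher in line 1 and lower in line 2, and 51 were lower in line 1 and higher in line 2. The same direction was thus seen in 56 windows, 42.1% (exact 95% interval 33.6 to 51.0, for counting error only and taking windows as independent), and this share was 54.9% when log2 ratios replaced ranks. The differences of the lines correlated with r = -0.145 and rho = -0.110 over the 133 windows. In line 1 the differences ran from -10.1 to 8.59 points with a median of -0.41, and in line 2 from -9.81 to 9.90 with a median of 1.42. Line 1 was higher at CT34 in 59 windows and line 2 in 84.

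Differences of at least 3 points were also compared. On chromosome 7, 15 windows (11.3% of 133) were higher at CT34 by this much in line 1 and 36 (27.1%) in line 2. In both sets was 1 window, 6.67% of the line 1 set, where 27.1% of all chromosome 7 windows were in the line 2 set, and 2.78% of the line 2 set against 11.3%. At least 3 points lower were 23 windows (17.3%) in line 1 and 11 (8.27%) in line 2, with 2 in both sets. These are 8.70% of the line 1 set against 8.27%, and 18.2% of the line 2 set against 17.3%, so the shared lower windows were at the background share. Windows with differences of this size in opposite directions were more numerous. There were 4 with line 1 higher and line 2 lower, and 7 with line 1 lower and line 2 higher. The 4 are of 15 windows, where 8.27% of all chromosome 7 windows were in the line 2 lower set. The 7 are of 23 windows, where 27.1% were in the line 2 higher set. The 7 were thus near the background share and the 4 above it.

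**Figure D2:**
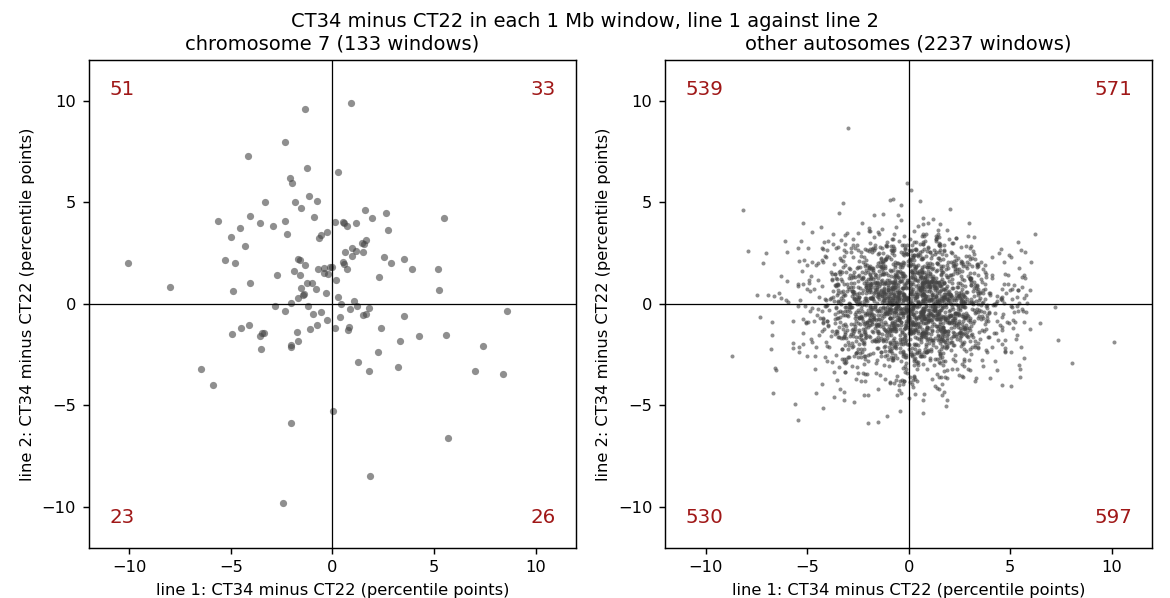
Difference CT34 minus CT22 in percentile points of each 1 Mb window, line 1 on the horizontal and line 2 on the vertical axis, for chromosome 7 (left) and the other autosomes (right), with the number of windows in each quadrant. Neither cloud is drawn out along the rising diagonal; on chromosome 7 the upper left quadrant holds the most windows, 51 of 133.

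No window of chromosome 7 passed the test of CT34 against CT22 with line as a term (limma, two-sided, Benjamini-Hochberg adjustment over all 2518 windows, adjusted p under 0.05). The calls were 0 of 133 (0%), as they were 0 of 2518 for all windows, and the smallest adjusted p was 0.245 (limma). At an unadjusted p under 0.05 there were 18 windows, 10 higher and 8 lower, which is 13.5% of chromosome 7 against 3.89% of all windows. The model estimated one common spread for all windows, with a standard error of 1.57 points, while chromosome 7 windows varied more between the lines than the others. With the spread estimated apart on chromosome 7, 3 windows were under the unadjusted 0.05, 2.26% of 133, and 0 passed after adjustment. Each window had n = 2 lines and 1 residual degree of freedom of its own. The p-values rest on the spread pooled over windows of the same arrays, which are not independent replicates. A missed threshold does not show that the times were alike.

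The chromosome 7 windows that were higher at CT34 in both lines, ordered by the smaller of the 2 differences, began with 26000001 to 27000000. Its level was 71.6 at CT22 and 77.1 at CT34 in line 1, and 58.4 and 62.7 in line 2. Both line 1 arrays thus lay above both line 2 arrays, and within each line CT34 was the higher. The adjusted p was 0.429 (limma). The window 117000001 to 118000000 stood at 62.1 and 64.9 in line 1 and at 56.4 and 60.0 in line 2. The window 72000001 to 73000000 stood at 75.7 and 78.3 in line 1 and at 50.2 and 54.7 in line 2. In both, the step between times was smaller than the step between lines. The window 136000001 to 137000000 stood at 54.2 and 56.7 in line 1 and at 54.0 and 56.3 in line 2, and is the one of the 5 in which the lines had nearly the same levels. There both CT34 arrays lay above both CT22 arrays, which held in 5 of the 133 chromosome 7 windows, 3.76%, and the reverse held in 3, 2.26%. The fifth, 23000001 to 24000000, stood at 65.5 and 69.0 in line 1 and at 51.6 and 53.8 in line 2.

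Among windows lower at CT34 in both lines, the first by the same rule was 41000001 to 42000000. It had 63.7 at CT22 and 57.9 at CT34 in line 1 and at 54.1 and 50.1 in line 2, with an adjusted p of 0.429 (limma). The window 95000001 to 96000000 followed, with 63.1 and 56.6 in line 1 and 52.8 and 49.6 in line 2. The window 47000001 to 48000000, close to the viewpoint, had 77.9 and 75.5 in line 1 and 71.8 and 62.0 in line 2. It had the smallest p of the chromosome (mean difference -6.11, unadjusted p 9.74e-05, adjusted p 0.245, limma), and most of that difference came from line 2. The window 90000001 to 91000000 had 63.9 and 60.3 in line 1 and 52.1 and 49.9 in line 2, and on the log2 scale it was higher at CT34 in both lines (0.07 in line 1 and 0.0085 in line 2). The window 131000001 to 132000000 had 64.8 and 62.8 in line 1 and 54.7 and 52.6 in line 2. On the log2 scale line 1 was higher at CT34 in the window starting at 47000001 (0.04, against -0.19 in line 2), and line 2 was higher in the window starting at 95000001 (0.0066, against -0.19 in line 1). Of these 5 windows, those starting at 41000001 and 131000001 were thus lower in both lines on both scales, with only -0.0104 in line 1 at 41000001 on the log2 scale. Deposited values and array medians have 2 decimals. The log2 differences of -0.0104, 0.0085 and 0.0066 are about that step or below it, so their signs are uncertain. The 5 windows higher by rank were higher in both lines on the log2 scale too. The window with the next smallest p, 12000001 to 13000000, was a difference of line 2, with 48.6 at CT22 and 58.5 at CT34 there and 60.6 and 61.5 in line 1 (adjusted p 0.283, limma).

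The most extreme differences of line 1 on chromosome 7 were not matched by line 2. In line 1 the largest was at 13000001 to 14000000, with 58.8 at CT22 and 67.4 at CT34, where line 2 had 49.1 and 48.7. The lowest was at 70000001 to 71000000, with 82.4 and 72.4, where line 2 had 51.4 and 53.5. In both windows line 2 lay slightly the other way. The extremes of line 2 were the windows starting at 12000001 and 47000001, described above, where line 1 had the same direction with smaller differences of 0.92 and -2.42 points.

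The viewpoint peak, taken as the highest smoothed signal, lay at 45200001 to 45300000. The window around it, 45000001 to 46000000, stood at 98.7 at CT22 and 98.2 at CT34 in line 1 and at 93.0 and 92.6 in line 2. Its neighbour 44000001 to 45000000 stood at 97.2 and 96.7 in line 1 and at 81.9 and 85.3 in line 2. The neighbour 46000001 to 47000000 stood at 94.6 and 95.1 in line 1 and at 82.7 and 86.7 in line 2. Line 1 sat near the top of the rank scale in these windows, which leaves little room for a difference there. At 43000001 to 44000000 line 1 had 91.4 at both times and line 2 had 75.0 and 69.7. At 42000001 to 43000000 line 1 had 69.2 and 71.0, while line 2 had 59.6 and 51.2. Just outside, at 40000001 to 41000000, the directions were the reverse of a shared one too, with 60.3 and 67.7 in line 1 and 60.4 and 58.3 in line 2. On the other flank, 48000001 to 49000000 stood at 73.4 and 73.0 in line 1 and at 65.3 and 66.9 in line 2. The window 49000001 to 50000000 was higher at CT34 in both lines, with 82.8 and 84.8 in line 1 and 67.8 and 72.0 in line 2. The mean difference changed its sign in the windows starting at 42000001, 44000001 and 48000001 on the log2 scale (0.10, -0.032 and -0.037), and at 44000001 and 48000001 with ranks taken apart on chromosome 7. With the median rank it did so at 44000001 and 46000001.

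By distance from the viewpoint peak, the mean differences of the lines had opposite signs in each of 4 classes. In the 4 windows under 2 Mb away, the mean level was 95.5 at CT22 and 95.3 at CT34 in line 1, and 83.2 and 83.6 in line 2. In the 15 windows from 2 to 10 Mb it was 66.6 and 66.9 in line 1, and 59.0 and 58.0 in line 2. In the 64 windows from 10 to 50 Mb it was 70.5 and 70.3 in line 1, and 55.6 and 56.9 in line 2. Each of these steps was smaller than the SD of the difference over windows of its class, which was 0.552 to 3.61 points in line 1 and 2.35 to 4.27 in line 2 over the 4 classes. In the 50 windows over 50 Mb away it was 72.1 and 71.3 in line 1, and 56.1 and 57.7 in line 2. On the log2 scale the line 1 differences of the last 2 classes were 0.07 and 0.03, so their sign turned, and both lines were then higher at CT34 beyond 10 Mb. With ranks taken apart on chromosome 7, the differences under 2 Mb were -1.80 in line 1 and -0.87 in line 2, and line 2 turned there. That scaling also turned line 1 from 10 to 50 Mb, to 0.40.

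The sides of the viewpoint were also set apart. In the 31 windows over 2 Mb towards the centromere, the mean level was 74.8 at CT22 and 76.4 at CT34 in line 1, and 59.5 and 60.5 in line 2. In the 98 windows over 2 Mb on the distal side it was 69.3 and 68.3 in line 1, and 55.1 and 56.3 in line 2. Line 1 was thus higher at CT34 on the proximal side by 1.63 points and lower on the distal side by a mean of -1.01, but the log2 scale gave 0.13 and 0.04, both higher, and quantile normalization gave -0.024 on the proximal side. Line 2 was higher on both sides, by 1.03 and 1.21 points, although ranks taken apart on chromosome 7 gave -0.23 and -0.03. The same direction was seen in 14 of the 31 proximal and 40 of the 98 distal windows. The difference between the sides was not tested.

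The opposite signs were largest where contact was highest. Windows of chromosome 7 were put into 5 classes of nearly equal number by their mean level in the 5 other arrays of the series, which took no part in the comparison. In the class with the highest level, 27 windows, line 1 stood at 91.3 at CT22 and 89.7 at CT34, and line 2 at 66.8 and 70.4. Line 1 was higher at CT34 in 5 of these 27 windows and line 2 in 24, and 6 windows had the same direction in both. In the next class the mean differences were -1.42 and 1.96 points, with the same direction in 9 of 26 windows. In the 3 lower classes line 2 differed by 0.061, 0.23 and -0.16 points and line 1 by 1.05, 0.0034 and 0.095, with the same direction in 10 of 27, 15 of 26 and 16 of 27 windows.

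For the highest class, line 2 was higher at CT34 under each scaling tried, by 0.15 on the log2 scale, 0.16 after quantile normalization and 2.32 points with ranks taken apart. Line 1 was lower by the mean of ranks, by quantile normalization (-0.21) and by ranks taken apart (-1.97), but higher on the log2 scale by 0.01, in 17 of 27 windows. That 0.01 is about the step of the deposited values and array medians, so its sign is uncertain. The range of line 1 was wider at CT34 than at CT22 (SD of log2 ratios 0.93 against 0.83). Ranks stay the same only under a rescaling that keeps the order of the probes. Whether the range had a part in the differences of line 1 on either scale was not tested. The 20 most contacted windows of chromosome 7 beyond 2 Mb are all among these 27, so their values are no separate evidence. Line 1 stood at 91.2 and 89.4 there and line 2 at 64.4 and 68.9, and CT34 was the higher time in 3 of 20 windows in line 1 and in 19 of 20 in line 2. On the log2 scale line 1 was higher in these windows by 0.01, which is again about the step of the deposited values.

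**Figure D3:**
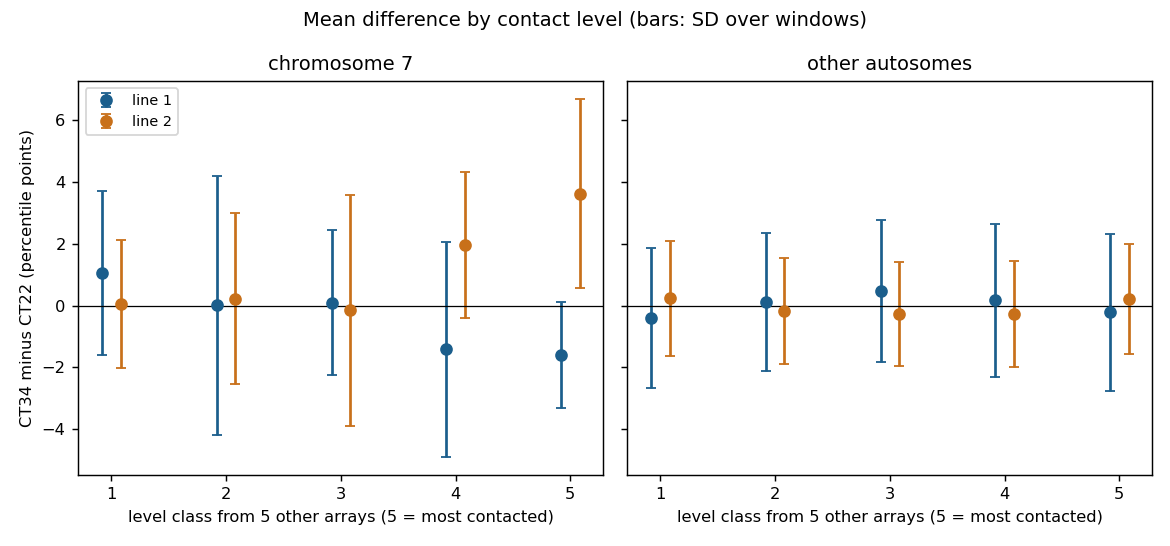
Mean difference CT34 minus CT22 in percentile points, with the SD over windows as bars, for windows in 5 classes by their level in 5 other arrays (class 5 has the highest level), on chromosome 7 (left) and the other autosomes (right), line 1 in blue and line 2 in orange. On chromosome 7 the lines part in classes 4 and 5, to -1.60 and 3.62 in the last. There line 1 is at 0.01 on the log2 scale, about the step of the deposited values, so its sign is uncertain.

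For chromosome 7 as a whole, the mean rank of its 19355 probes was 71.6 at CT22 and 71.0 at CT34 in line 1, and 57.0 and 58.3 in line 2. The mean was 64.3 ± 10.3 (SD, n = 2) at CT22 and 64.6 ± 9.01 at CT34. These SDs hold the gap in level between the lines, so they are not the error of a comparison paired by line. Within lines the differences were -0.54 and 1.25 points, of opposite sign, and averaged 0.35. An exact permutation test of the 4 values, which does not pair them by line, gave p = 1. The smallest p it allows is 0.333, so it could not have shown a difference. The percentage of chromosome 7 probes above the array's 95th percentile off chromosome 7 was 36.1 at CT22 and 34.7 at CT34 in line 1, and 18.2 and 20.8 in line 2. On the log2 scale the mean of chromosome 7 was higher at CT34 by 0.05 in both lines, so the direction of line 1 turned.

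On the other autosomes the lines shared a direction about as often as they differed in it. Of 2237 windows, 571 were higher at CT34 in both lines (25.5%, against 25.5% of all windows) and 530 were lower in both (23.7%, against 23.2%). Another 597 were higher in line 1 and lower in line 2, and 539 the reverse. The same direction was seen in 1101, 49.2% (exact 95% interval 47.1 to 51.3, counting error only), with r = -0.017 and rho = -0.018 across windows. The differences ran from -8.70 to 10.1 points in line 1 and from -5.85 to 8.65 in line 2, with means of 0.032 and -0.062.

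Windows at least 3 points higher at CT34 numbered 222 (9.92%) in line 1 and 78 (3.49%) in line 2, of which 3 were shared. These are 1.35% of the line 1 set against a background of 3.49%, and 3.85% of the line 2 set against 9.92%. At least 3 points lower were 233 (10.4%) and 111 (4.96%) windows, of which 18 were shared, 7.73% of the line 1 set against 4.96% and 16.2% of the line 2 set against 10.4%. Another 25 windows had differences of this size in opposite directions, 11 with line 1 higher and 14 with line 1 lower. The 11 are of 222 windows, where 4.96% of all autosomal windows were in the line 2 lower set. The 14 are of 233 windows, where 3.49% were in the line 2 higher set. The 11 were thus at the background share and the 14 above it.

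The test called 0 of 2237 autosomal windows (0%), with a smallest adjusted p of 0.255 (limma). At an unadjusted p under 0.05 there were 74, 3.31%, of which 26 were higher and 48 lower at CT34.

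The autosomal windows that were lower at CT34 in both lines by the most lay on several chromosomes, and none passed the test. On chromosome 11, the window 115000001 to 116000000 stood at 70.1 at CT22 and 64.6 at CT34 in line 1 and at 60.1 and 54.4 in line 2 (adjusted p 0.255, limma). On the same chromosome, 5000001 to 6000000 stood at 68.6 and 63.0 in line 1 and at 60.5 and 55.6 in line 2. In both windows the step was of similar size in the lines. The chromosome 6 window 130000001 to 131000000 had 50.3 and 43.6 in line 1 and 43.9 and 39.5 in line 2 (adjusted p 0.255, limma). The chromosome 16 window 86000001 to 87000000 had 48.4 and 43.8 in line 1 and 49.9 and 45.5 in line 2. The chromosome 4 window 88000001 to 89000000 had 48.5 and 44.3 in line 1 and 51.4 and 46.3 in line 2. In these last 3 windows both CT34 arrays lay below both CT22 arrays, which held in 150 of the 2237 autosomal windows, 6.71%. On chromosome 9, 106000001 to 107000000 had 59.9 and 55.6 in line 1 and 53.5 and 49.6 in line 2.

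Among windows higher at CT34 in both lines, 26000001 to 27000000 on chromosome 5 stood at 45.5 and 51.7 in line 1 and at 49.3 and 52.7 in line 2 (adjusted p 0.429, limma). On chromosome 1, 132000001 to 133000000 stood at 46.1 and 51.5 in line 1 and at 48.0 and 51.0 in line 2. In both windows the CT34 arrays lay above the CT22 arrays, which held in 125 of the 2237 autosomal windows, 5.59%. The chromosome 4 window 137000001 to 138000000 had 65.4 and 68.6 in line 1 and 52.8 and 56.2 in line 2. The chromosome 9 window 14000001 to 15000000 had 49.0 and 51.9 in line 1 and 49.8 and 53.8 in line 2. In the first of these the lines lay apart, and in the second both CT34 arrays again lay above both CT22 arrays. The chromosome 11 window 17000001 to 18000000 had 43.8 and 46.8 in line 1 and 49.1 and 52.5 in line 2. The chromosome 8 window 75000001 to 76000000 had 55.7 and 58.7 in line 1 and 58.3 and 61.1 in line 2.

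Of the 4 autosomal windows with the most extreme differences of a single line, those of the highest difference were not matched by the other line. On chromosome 13, 62000001 to 63000000 stood at 45.1 and 55.3 in line 1 and at 47.4 and 45.5 in line 2. On chromosome 19, 6000001 to 7000000 stood at 51.3 and 60.0 in line 2 and at 72.5 and 69.6 in line 1. The largest negative difference of line 1, on chromosome 8 at 109000001 to 110000000, was shared in direction only, with 67.3 and 58.6 in line 1 against 58.5 and 55.9 in line 2 (adjusted p 0.255, limma). The chromosome 15 window 13000001 to 14000000, the lowest difference of line 2, was likewise shared in direction, with 51.3 and 45.5 in line 2 and 38.2 and 36.2 in line 1.

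The autosomal windows most in contact with Dbp, by the 5 other arrays, were on chromosomes 19, 10 and 11. On chromosome 10, 80000001 to 81000000 stood at 77.6 at CT22 and 70.4 at CT34 in line 1 and at 60.5 and 62.5 in line 2. Its neighbour 79000001 to 80000000 stood at 79.8 and 73.5 in line 1 and at 56.3 and 57.7 in line 2. Line 1 was lower at CT34 in these windows, and line 2 lay the other way. On chromosome 19, 5000001 to 6000000 had 77.4 and 74.3 in line 1 and 59.9 and 60.6 in line 2. Next to it, 4000001 to 5000000 was the only one of the 5 that was lower at CT34 in both lines, with 72.0 and 68.9 in line 1 and 58.7 and 56.6 in line 2, but on the log2 scale line 2 was higher there by 0.02, so none of the 5 was lower in both on that scale. On chromosome 11, 120000001 to 121000000 had 73.9 and 68.7 in line 1 and 57.7 and 59.3 in line 2. Over the 20 most contacted autosomal windows the mean level was 71.4 and 69.3 in line 1 and 56.5 and 57.3 in line 2. CT34 was the higher time in 5 of 20 in line 1 and in 12 of 20 in line 2, and 9 had the same direction. The line 1 difference was negative also on the log2 scale (-0.08), after quantile normalization (-0.09), with ranks taken apart (-2.15) and with the median rank (-5.00), while that of line 2 turned to -0.48 when the median rank of a window was used. Over the highest class of autosomal windows the mean differences were -0.22 in line 1 and 0.20 in line 2, and 238 of 448 windows, 53.1%, had the same direction. Each lower autosomal class also had mean differences of opposite sign, -0.39 in line 1 and 0.23 in line 2 in the lowest.

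As wholes, the other autosomes differed by less than 1 point between the times. Over the 18 other autosomes the difference of the mean rank ran from -0.52 to 0.47 points in line 1 and from -0.41 to 0.24 in line 2. Of these autosomes 10 had the same sign in both lines. Chromosomes 1, 5, 8 and 9 were higher at CT34 in both, and chromosomes 3, 10, 11, 13, 15 and 19 lower in both. Over all 21 numbered chromosomes 11 had the same sign by rank, 16 on the log2 scale and 9 by the median rank, so the signs of single chromosomes depend on the scale. Chromosome 10 stood at 45.8 and 45.4 in line 1 and at 49.6 and 49.3 in line 2. The share of windows with the same direction ran from 40.0% on chromosome 14 to 57.6% on chromosome 17. The correlation of the differences over windows ran from -0.238 on chromosome 13 to 0.150 on chromosome 18.

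**Figure D4:**
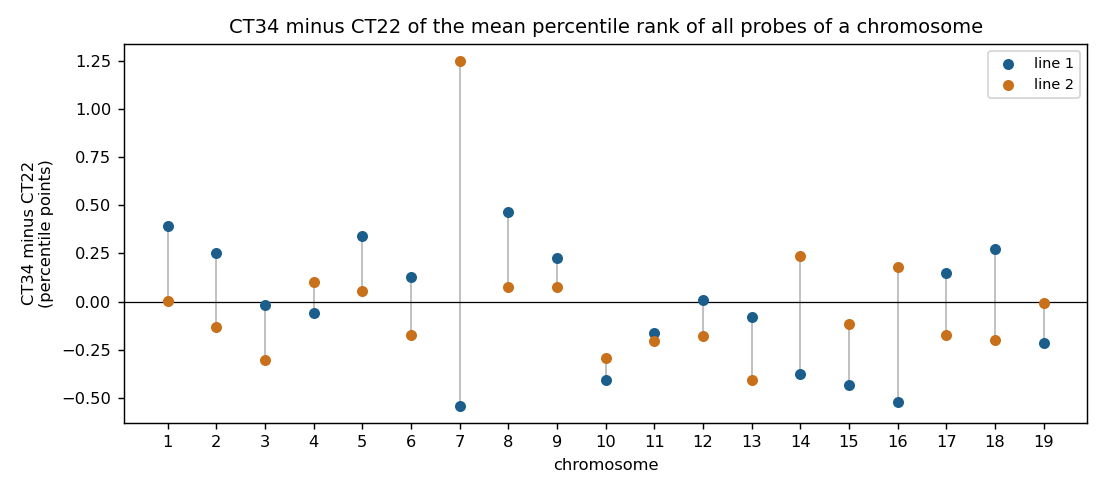
Difference CT34 minus CT22 of the mean percentile rank of all probes of each autosome, in percentile points, line 1 in blue and line 2 in orange, 1 value per line. The 18 other autosomes lie between -0.52 and 0.47, and chromosome 7 has the widest gap between the lines of all autosomes, -0.54 and 1.25.

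Neighbouring windows with a shared direction formed few long runs. On chromosome 7 the longest was 6 windows, 116000001 to 122000000, higher at CT34 in both lines, with mean levels of 65.6 and 67.4 in line 1 and 54.7 and 56.7 in line 2. Next were 3 windows at 95000001 to 98000000, lower in both, with 74.7 and 71.7 in line 1 and 55.2 and 53.2 in line 2. Another 3 at 138000001 to 141000000 were higher in both, with 66.1 and 67.4 in line 1 and 56.8 and 60.1 in line 2. The other shared windows of chromosome 7 stood alone in 36 cases and in pairs in 4. On the other autosomes the longest run was 7 windows of chromosome 9, 41000001 to 48000000, higher in both, with 55.1 and 56.6 in line 1 and 51.4 and 52.6 in line 2. A run of 6 on chromosome 16, 53000001 to 59000000, was lower in both, with 47.5 and 44.3 in line 1 and 47.6 and 46.4 in line 2. A run of 6 on chromosome 3, 93000001 to 99000000, was higher by 1.14 and 1.09 points. Runs of 5 were at 14000001 to 19000000 on chromosome 9, higher by 2.09 and 1.67, and at 111000001 to 116000000 on chromosome 10, with differences of -2.12 and -1.48. The autosomes held 624 single windows and 143 pairs.

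How well a single array pair measured its own difference was read by splitting the probes of each window into odd and even ones. On chromosome 7 the differences from odd and even probes correlated with r = 0.420 in line 1 and 0.279 in line 2 over 133 windows. The odd probes of line 1 against the even probes of line 2 gave r = -0.039. On the other autosomes the values were 0.152 and 0.060 within a line and 0.018 between lines over 2237 windows. The probes of a window are on the same array, so the agreement within a line includes what is particular to that pair of arrays. The median standard error of a window's difference from its probes was 2.18 points in line 1 and 2.26 in line 2 on chromosome 7, against SDs over windows of 3.11 and 3.18. Off chromosome 7 it was 1.98 and 1.63 against 2.38 and 1.77, so there the spread over windows was little larger than the probe error.

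Some windows passed the test at another resolution or scale. In 100 kb windows 11 passed, 3 of 1309 on chromosome 7 (0.229%), 7 of 22176 on the other autosomes (0.0316%) and 1 on chromosomes 20 and 21. They held 5 to 14 probes against a median of 16 over all such windows, and all 11 had the same direction in both lines. The test is of the mean of both lines' differences and so favours a shared direction, which makes this agreement no separate evidence. The line 1 difference was the larger in 9 of the 11. The chromosome 8 window 44500001 to 44600000 stood at 39.3 and 59.4 in line 1 and at 44.4 and 64.1 in line 2 (adjusted p 0.0309, limma). On chromosome 7, 106000001 to 106100000 stood at 56.6 and 75.2 in line 1 and at 47.0 and 65.7 in line 2 (adjusted p 0.0453, limma). In these windows the lines had steps of nearly the same size. On chromosome 17, 35400001 to 35500000 stood at 91.6 and 58.0 in line 1 and at 62.1 and 50.4 in line 2 (adjusted p 0.0104, limma), and line 1 made most of that difference. These examples were chosen after their values were seen.

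On the log2 scale 17 of the 1 Mb windows passed, 12 of 133 on chromosome 7 (9.02%), of which 11 were higher at CT34, and 5 of 2237 on the other autosomes (0.224%), of which 4 were lower. The line 1 difference was the larger in 14 of the 17. On chromosome 7, 72000001 to 73000000 had 1.72 at CT22 and 2.06 at CT34 in line 1, and 0.15 and 0.38 in line 2, as log2 ratios (adjusted p 8.42e-06, limma). At 49000001 to 50000000 they were 2.02 and 2.31 in line 1 and 0.75 and 0.90 in line 2. At 139000001 to 140000000 they were 1.13 and 1.36 in line 1 and 0.20 and 0.37 in line 2. These windows were higher at CT34 in both lines by rank as well, without passing the test. On this scale the wider range of line 1, and of CT34 within each line, enters the difference, and its part in these calls was not tested. At an unadjusted p under 0.05 (limma) there were 58 chromosome 7 windows, 43.6%, against 5.54% of the other autosomal windows. The fit drew on all windows together for the spread. For log2 ratios the spread was not estimated apart on chromosome 7, so these p-values may be too small there.

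The Bmal1-/- line at CT22 and CT34, 1 array each and not used above, gave a further pair to set beside the shared windows. BMAL1 is the partner of CLOCK, and its loss stops the clock. Of the 33 chromosome 7 windows higher at CT34 in both wild-type lines, 21 were higher in Bmal1-/- too, 63.6%, against 63.9% of all chromosome 7 windows. Of the 23 lower in both, 8 were lower in Bmal1-/-, 34.8% against 36.1%. These shares were at the background. Of the 10 chromosome 7 windows named above for a shared direction, 5 of 5 higher and 4 of 5 lower ones had the same direction in Bmal1-/-, and of the 12 autosomal ones 4 of 6 and 2 of 6. On chromosome 7 these Bmal1-/- differences ran from 0.17 to 4.98 points in the 5 higher windows and from -3.21 to 0.98 in the 5 lower ones. The median standard error from probes there was 2.18 and 2.26 points in the wild-type pairs, so the smaller signs carry little. In the runs of chromosome 7 the direction was the same in 6 of 6 windows starting at 116000001, 3 of 3 starting at 138000001 and 1 of 3 starting at 95000001. In the longest run of chromosome 9 it was 7 of 7. In the other autosomal runs it was 4 of 6 on chromosome 16, 5 of 6 on chromosome 3, 2 of 5 on chromosome 9 and 4 of 5 on chromosome 10. Neighbouring windows are not independent, and these counts were not tested. On the other autosomes it was 326 of 571, 57.1% against 50.7%, for windows higher in both and 293 of 530, 55.3% against 49.3%, for windows lower in both. With 1 array per group, the Bmal1-/- pair has no replicate check.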

How the data were processed

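Each sample had 1 NimbleGen array of 2 colours, with Dbp 4C DNA in Cy5 and genomic DNA in Cy3. The deposited log2 ratios (Cy5 over Cy3) had been shifted by the Tukey biweight mean, per the file headers. The log base follows that software's convention and is not written in the files. For the genome build, background correction and filters, the sources used here give nothing. Values have 2 decimals, so tied probes took average ranks. No dye swap was used.

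Percentile ranks were taken over all probes of an array and averaged in 1 Mb windows with at least 50 probes (median 156). CT34 was compared with CT22 in limma 3.58.1 (R 4.3.3, lmFit and eBayes) with line in the model. Samples are paired by replicate number, which marks the line in the labels. The differences between lines at the 2 times correlated with r = 0.875 over chromosome 7 windows and 0.844 over other autosomal windows. Distances were counted from the centre of the peak window. The test procedure was tested on simulated data. The rest ran in Python 3.11.15 (pandas 2.3.3, numpy 2.4.6, matplotlib 3.10.9, scipy 1.17.1). The arrays' number limits precision.

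Named windows were those higher and those lower at CT34 in both lines with the largest smaller difference (5 and 5 on chromosome 7, 6 and 6 on the other autosomes), the 3 of smallest p in each set, those within 5 Mb of the viewpoint, the 3 and 5 longest shared runs, and the 5 highest of the 20 most contacted autosomal windows. Windows with the most extreme difference of a single line were added after values were seen. The comparison, windows and lists were chosen with earlier results of these data known. Alternatives were other scalings, window summaries, sizes, positions and probe minimums, other variance models, no term for line, and leaving out each array.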

Additional observations from a re-analysis of the deposited data

Results flagged for a closer look

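In 9 summaries, which are listed here and are not the only ones, the lines differed between CT22 and CT34 in opposite directions. Each line is 1 pair of arrays, and the difference between the lines was not tested in any of them. The summaries overlap, since the distance and level classes of chromosome 7 are made of the same windows and its 20 most contacted windows are all in the highest class. For the mean rank of chromosome 7 the differences were -0.54 points in line 1 and 1.25 in line 2. By distance from the viewpoint they were -0.13 and 0.43 under 2 Mb, 0.27 and -0.996 from 2 to 10 Mb, -0.20 and 1.29 from 10 to 50 Mb, and -0.79 and 1.65 over 50 Mb. In the highest class of chromosome 7 windows by contact level they were -1.60 and 3.62, and in its 20 most contacted windows -1.71 and 4.45. On the other autosomes they were -0.22 and 0.20 in the highest class and -2.12 and 0.88 in the 20 most contacted windows. The lower level classes of the other autosomes all had opposite signs too, with -0.39 and 0.23 in the lowest. Opposite signs were thus not particular to the highest autosomal class. On the log2 scale line 1 turned positive for the whole of chromosome 7 (0.05). It stayed negative for the 20 most contacted autosomal windows (-0.08). For the highest class of chromosome 7 and for its 20 most contacted windows it was 0.01. That is about the step of the deposited values and array medians, so the sign there is uncertain.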

How the results depend on the processing

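Windows past the limma test, 0 on chromosome 7 and 0 on the other autosomes with ranks in 1 Mb windows (18 and 74 at an unadjusted p under 0.05), numbered 12 and 5 on the log2 scale, 3 and 7 in 100 kb windows, 1 and 1 in 250 kb windows, and 1 and 3 with at least 5 probes. With at least 5 probes 7 windows passed in all, including chromosomes 20 and 21. They held 5 to 23 probes, against a median of 156, and 5 had the same direction in both lines. The 1 on chromosome 7 held 12 probes and differed by 20.3 points in line 1 and -0.28 in line 2. Without the replicate block (no term for line) 0 and 0 passed. In simulated data this model recovered 0% of windows changed by 5 points and 0% of those changed by 10. Its lack of calls therefore cannot show whether the times differed. The model with line recovered 48% at 5 points and 100% at 10, so it too could miss the smaller changes. The simulation changed 200 of 2518 windows by 5 to 30 points, equally in both lines. Its noise had the same spread in all windows of a line, while chromosome 7 windows varied more. With 177 calls its adjustment was also less strict than where no window passes. These shares are thus not the recovery in the real data, which could be lower. The other alternatives that kept all arrays gave 0 and 0. Fits with 1 array left out had no term for line and 1 array at a time, so their calls are not counted. The cause of the extra calls was not tested. The share of chromosome 7 windows with the same direction was 54.9% on the log2 scale and 54.9% after the contact level was taken out, an alternative chosen after seeing the data. The mean difference of chromosome 7 turned to -0.36 with the median rank, and with 1 array left out ran from -6.91 to 7.62, since lines are then unbalanced. The mean difference under 2 Mb was -1.33 with ranks taken apart on chromosome 7, and from 2 to 10 Mb it was 0.037 on the log2 scale. For the highest minus the lowest autosomal class by level, line 1 gave 0.42 with levels from 3 wild-type arrays and line 2 gave 0.012 on the log2 scale.

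Of the named windows, the log2 scale reversed on chromosome 7 those starting at 42000001 (0.10), 44000001 (-0.032), 48000001 (-0.037) and 90000001 (0.041). Ranks taken apart reversed 44000001 (-0.885) and 48000001 (-0.55), and the median rank reversed 44000001 (-0.42) and 46000001 (-0.30). Leaving out each array in turn, without a term for line, reversed 22 of the 37 named windows. The lines are then unbalanced, so each value also holds the gap in level between the lines. These reversals thus do not show how stable the differences within a line were. On chromosome 7 the values ran from -0.55 to 11.4 (12000001), -4.75 to 10.5 (23000001), -2.37 to 12.1 (26000001), -2.02 to 7.36 (40000001), -13.3 to 6.62 (42000001), -13.5 to 8.24 (43000001), -6.23 to 9.05 (44000001), -3.33 to 2.36 (45000001), -3.65 to 8.23 (46000001), -12.9 to 0.64 (47000001), -3.49 to 4.62 (48000001), -4.43 to 10.6 (49000001), -9.16 to 16.3 (72000001), -8.76 to 3.03 (90000001), -9.99 to 0.27 (95000001) and -7.17 to 3.00 (131000001). Elsewhere they ran from -3.02 to 9.54 (chromosome 4, 137000001), -14.2 to 9.26 (chromosome 10, 79000001), -11.2 to 5.98 (chromosome 10, 80000001), -9.96 to 6.33 (chromosome 11, 120000001), -9.27 to 4.12 (chromosome 19, 4000001) and -9.93 to 7.53 (chromosome 19, 5000001).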
